A study of Mus musculus with 21 samples.

Results

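The genes described here are 8 enzymes and transporters of liver sugar metabolism, Pck1, Fbp1, G6pc, Slc2a2, Khk, Pklr, Gys2 and Pygl, measured in mouse hearts. They were found by symbol among the 46517 Ensembl genes of the deposited count table, and all 8 had counts. Bulk RNA-sequencing reads the RNA of a whole piece of tissue, here heart. The hearts came from 4 control mice (Notch3 +/+) and 3 Notch3-/- mice, all on the C57BL/6J background and aged 10 to 14 months. The paper names frozen left ventricle for its qPCR and gives no region of the heart for the sequencing. The Notch3-/- allele carries a lacZ insertion in the Notch3 locus and is present in every cell of the mouse. Sex is not given. Each mouse gave 3 technical libraries, which were summed, so that a mouse was 1 replicate. Mice are numbered 1 to 4 among the controls and 1 to 3 among the Notch3-/- mice, and values by mouse are listed in that order. The totals of the controls were 3091461, 4638786, 4208205 and 3046326 counts, and those of the Notch3-/- mice were 3828763, 5167869 and 5086740. Control mice 1 and 2 carry labels that start with X and the other 5 mice labels that start with k, so label type and genotype are partly tied together.

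Gluconeogenesis makes glucose from lactate, amino acids and glycerol, and it runs mainly in the liver and the kidney cortex. Its committed steps are phosphoenolpyruvate carboxykinase (Pck1), fructose-1,6-bisphosphatase (Fbp1) and glucose-6-phosphatase (G6pc), whose product leaves the cell as free glucose. The liver also takes up glucose through GLUT2 (Slc2a2), phosphorylates fructose with ketohexokinase (Khk), ends glycolysis with its own pyruvate kinase (Pklr), and stores and breaks down glycogen with its own synthase (Gys2) and phosphorylase (Pygl). Heart muscle takes up glucose mainly through GLUT4 and uses other genes for most of these steps, such as Pkm, Gys1 and Pygm, and it is not known as an organ that releases glucose.

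The targeted gene was measured first. The 4 controls had 174, 200, 245 and 185 counts of Notch3 and the 3 Notch3-/- mice had 22, 36 and 25, so every mouse followed its label. Its log2 fold change was -3.16 (SE 0.23, FDR 0.00173 by edgeR's quasi-likelihood test). Cardiomyocyte genes such as Ttn were high in every mouse, with 39556 to 53006 counts of Ttn in the control mice and 43517 to 55702 in the Notch3-/- mice.

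The 8 genes had high counts in Notch3-/- mice 1 and 2 and low counts in the other 5 mice. Summed over the 8 genes, the controls had 154, 235, 149 and 120 counts and the Notch3-/- mice 2322, 13756 and 343. Notch3-/- mouse 3 stood apart from the other mice of its genotype, and edgeR's calls are therefore given with and without it. In whole tissue, a different number of cells of a type and a different amount of RNA per cell cannot be told apart. Levels are TMM-normalized counts per 1000000 counts (CPM) unless stated otherwise.

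**Figure D1:**
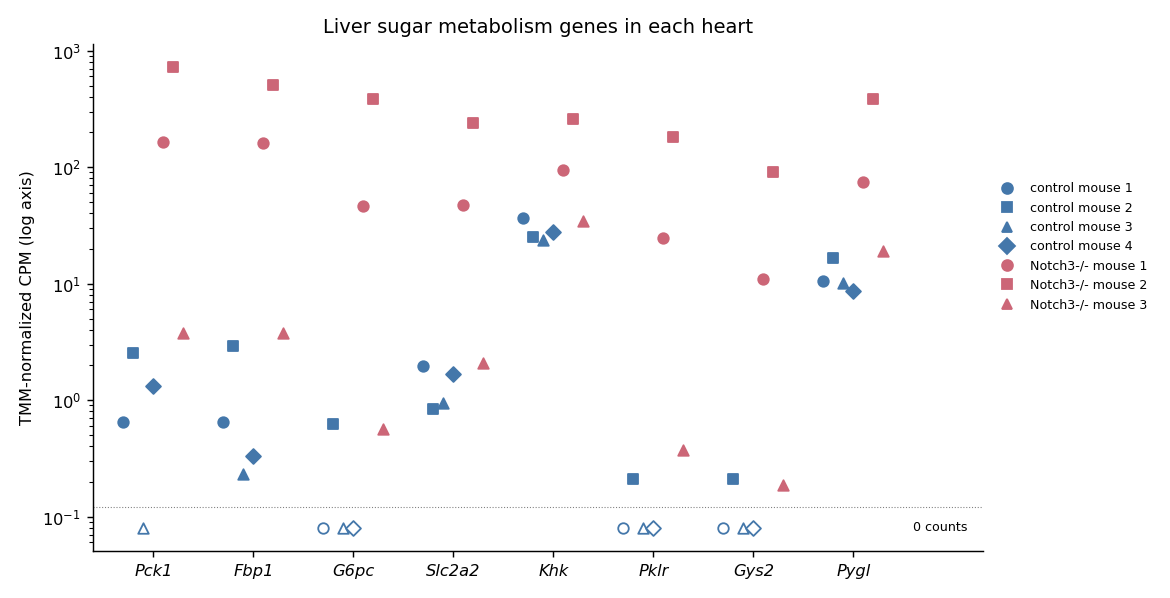
CPM of the 8 genes in each of the 7 mice on a log axis, with blue symbols for control mice, red symbols for Notch3-/- mice and open symbols below the dotted line for a count of 0. Notch3-/- mice 1 and 2 lie above every control mouse for each gene, and Notch3-/- mouse 3 lies near the highest control mouse.

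Pck1 (ENSMUSG00000027513, chr2:173153048-173159273, plus strand, GRCm38) converts oxaloacetate to phosphoenolpyruvate at the start of gluconeogenesis. Its counts were 2, 12, 0 and 4 in the controls and 609, 3598 and 20 in the Notch3-/- mice. Every Notch3-/- mouse was above every control mouse in CPM, but mouse 3 exceeded control mouse 2 only by 3.76 to 2.52 CPM, and 18 of its 20 counts came from 1 technical library (0, 2 and 18 counts). Against the pooled control mice, the ratio of CPM was 137 (95% counting interval 86.1 to 233) in Notch3-/- mouse 1, 607 (384 to 1025) in mouse 2 and 3.16 (1.59 to 6.33) in mouse 3. Against control mouse 2 alone, the counting interval of the ratio of mouse 3 (0.696 to 3.36) includes 1. These intervals are exact conditional binomial intervals and cover counting error only.

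Fbp1 (ENSMUSG00000069805, chr13:62864753-62888282, minus strand) removes a phosphate from fructose 1,6-bisphosphate. It had 2, 14, 1 and 1 counts in the control mice and 600, 2503 and 20 counts in the Notch3-/- mice. Mouse 3 had 3.76 CPM and control mouse 2 had 2.93, a ratio of 1.28 whose counting interval (0.616 to 2.74) includes 1. Over the pooled control mice the ratio of mouse 3 was 3.16 (1.59 to 6.33).

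G6pc (ENSMUSG00000078650, chr11:101367561-101377903, plus strand) encodes the catalytic subunit that frees glucose from glucose 6-phosphate. It had 0, 3, 0 and 0 counts in the control mice and 173, 1914 and 3 counts in the Notch3-/- mice. Here the groups overlapped, since Notch3-/- mouse 3 with 0.564 CPM was below control mouse 2 with 0.629 CPM. Over the pooled control mice, with 3 counts in all, the ratio was 234 (78.7 to 1145) in mouse 1 and 1937 (662 to 9403) in mouse 2. In control mice 1, 3 and 4 a count of 0 allows up to 3 counts, which is 0.982, 0.702 and 0.996 CPM.

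Among the genes of sugar entry and glycolysis, Slc2a2 (ENSMUSG00000027690, chr3:28697903-28731359, plus strand) had 6, 4, 4 and 5 counts in the control mice and 175, 1179 and 11 counts in the Notch3-/- mice. It encodes a transporter of low affinity that lets glucose pass both ways across the hepatocyte membrane. Notch3-/- mouse 3 had 2.07 CPM and the highest control mouse 1.96 CPM, and its ratio to the pooled control mice was 1.65 (0.707 to 3.64).

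Khk (ENSMUSG00000029162, chr5:30921431-30931248, plus strand) had the most counts of the 8 genes in each control mouse. Ketohexokinase phosphorylates fructose, with one isoform in the liver and another of lower activity in many tissues. The counts were 112, 121, 101 and 84 in the control mice and 355, 1283 and 185 in the Notch3-/- mice. The control mice had 28.4 ± 5.79 CPM (SD, n = 4), and Notch3-/- mice 1 to 3 had 95.3, 258 and 34.8 CPM. Mouse 3 lay inside the range of the control mice, whose highest value was 36.7 CPM. The table counts the gene and not its isoforms.

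Pklr (ENSMUSG00000041237, chr3:89136142-89146784, plus strand) makes the pyruvate kinase of liver and red blood cells. It had 0, 1, 0 and 0 counts in the control mice and 91, 910 and 2 counts in the Notch3-/- mice. With 1 control count in all, the ratio was 369 (64.6 to 14740) in mouse 1 and 2763 (495 to 109300) in mouse 2. Of its 3236 exon bases, 711 are shared with Hcn3 on the opposite strand, and Hcn3 had 189 counts over all mice. Whether the counting used strand is not given in the sources used here.

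The glycogen genes followed the same mice. Gys2 (ENSMUSG00000030244, chr6:142422613-142473109, minus strand), which lengthens glycogen chains in liver, had 0, 1, 0 and 0 counts in the control mice and 41, 456 and 1 in the Notch3-/- mice. Notch3-/- mouse 3 was at 0.188 CPM and control mouse 2 at 0.210, each a single count. Pygl (ENSMUSG00000021069, chr12:70190811-70231488, minus strand), which breaks glycogen down to glucose 1-phosphate, had 32, 79, 43 and 26 counts in the control mice and 278, 1913 and 101 in the Notch3-/- mice. Its level was 11.4 ± 3.51 CPM in the control mice (SD, n = 4), second to Khk. Notch3-/- mouse 3 had 19.0 CPM against 16.6 in the highest control mouse. The ratio of mouse 3 was 1.595 (1.24 to 2.05) to the pooled control mice and 1.15 (0.846 to 1.56) to control mouse 2.

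Since the 8 genes moved together, promoters are shown for 3 genes with at most 18 counts over the control mice (G6pc, Pck1 and Pklr) and for the 2 with the most, Khk and Pygl. RefSeq promoter sequences (GRCm38.p6), each with 250 bases before and 50 after the start site, were matched for 7 of the 8 genes, with 2 start sites for Pklr. The searched motifs were TATAAA (the TATA box), found on either strand in 13.6% of 32817 promoters of this length, TGACGT (core of the cyclic AMP response element) in 7.51%, the E-box CACGTG in 7.15%, CACGGG (an E-box-like repeat of the carbohydrate response element of Pklr) in 10.1%, and the forkhead core TGTTTAC in 3.65%. No searched motif shares a base with another in the sequences below. A match is a description of the letters and not of a bound site. Capitals mark the matches, and each sequence reads from 5′ to 3′ on the strand of the gene.
G6pc, chr11:101367466-101367765, plus strand: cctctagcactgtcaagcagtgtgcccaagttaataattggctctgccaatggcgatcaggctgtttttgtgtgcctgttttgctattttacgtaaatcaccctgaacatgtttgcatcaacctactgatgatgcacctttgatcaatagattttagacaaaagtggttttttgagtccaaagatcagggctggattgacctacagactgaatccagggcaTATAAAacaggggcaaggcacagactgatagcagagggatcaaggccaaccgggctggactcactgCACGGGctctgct
Pck1, chr2:173152823-173153122, plus strand: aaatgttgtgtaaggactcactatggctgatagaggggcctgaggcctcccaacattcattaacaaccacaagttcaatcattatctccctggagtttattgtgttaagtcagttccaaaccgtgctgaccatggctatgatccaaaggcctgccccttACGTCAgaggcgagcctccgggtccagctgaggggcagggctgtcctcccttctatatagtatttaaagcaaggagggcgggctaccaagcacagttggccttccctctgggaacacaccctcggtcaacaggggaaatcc
Pklr, downstream start site, chr3:89136373-89136672, plus strand: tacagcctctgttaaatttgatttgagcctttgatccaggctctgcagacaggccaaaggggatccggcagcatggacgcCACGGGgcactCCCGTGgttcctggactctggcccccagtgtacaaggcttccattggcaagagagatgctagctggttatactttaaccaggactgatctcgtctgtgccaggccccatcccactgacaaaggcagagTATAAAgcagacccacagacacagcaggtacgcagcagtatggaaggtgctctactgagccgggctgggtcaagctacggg
Khk, chr5:30921309-30921608, plus strand: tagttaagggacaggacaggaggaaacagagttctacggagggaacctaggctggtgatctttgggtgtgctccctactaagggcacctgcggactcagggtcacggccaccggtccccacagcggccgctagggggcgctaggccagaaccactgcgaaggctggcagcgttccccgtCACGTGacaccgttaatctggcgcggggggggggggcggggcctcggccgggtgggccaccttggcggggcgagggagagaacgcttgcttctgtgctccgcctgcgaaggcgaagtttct
Pygl, chr12:70227634-70227933, minus strand: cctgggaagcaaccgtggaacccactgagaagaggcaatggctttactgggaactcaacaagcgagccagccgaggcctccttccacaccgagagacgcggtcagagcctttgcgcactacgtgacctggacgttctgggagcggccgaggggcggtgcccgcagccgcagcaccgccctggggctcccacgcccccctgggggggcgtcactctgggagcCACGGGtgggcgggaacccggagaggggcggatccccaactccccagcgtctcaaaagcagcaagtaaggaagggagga

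The sequence before G6pc has TATAAA at position -29, counted from the start site as +1, and CACGGG at 38 behind it. That of Pck1 has TGACGT on the reverse strand at -91, printed as ACGTCA. The downstream start site of Pklr, the one used in liver, has CACGGG at -170 and its reverse, CCCGTG, at -159, and TATAAA at -31. Khk has CACGTG at -71, and Pygl has CACGGG at -29. Fbp1, Slc2a2 and the upstream start site of Pklr had no match, and the forkhead core was found in none of the windows of these genes.

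Khk and Pygl, with 418 and 180 counts over the control mice against at most 19 for the other members, had the most CpG among the 7 members with a promoter entry. They had 23 and 22 CpG dinucleotides in 300 bases and a GC content of 65.7% and 67.0%. The other 5 matched members (Gys2 had no entry) had 2 to 8 CpG and 46.7% to 57.3% GC, with 4 CpG for G6pc, 6 for Pck1, 6 for Fbp1, 2 for Slc2a2 and 3 and 8 for the start sites of Pklr. The median over all promoters was 7 CpG and 52.7% GC, and that of 9 start sites of the heart counterparts (Pkm with 2 of them, Slc2a4 with none in the table) was 18 CpG and 60.3% GC. These counterparts were not uniform, and Pygm with 4 CpG, Fbp2 with 6 and Pck2 with 9 lay near the members with few control counts. With 2 genes against 5 this is a description without a test.

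Only 4 of the 8 genes, Pck1, Fbp1, Khk and Pygl, passed edgeR's expression filter with all 7 mice, and none of these 4 was called. Called means an FDR lower than 0.05 over all genes tested and a fold change of at least 1.5. In that fit 1 of 14324 genes was called (0.00698%), which was Notch3, and 1488 genes had an unadjusted p lower than 0.05, the 4 tested members among them. The log2 fold changes were 7.99 for Pck1 (SE 1.49, FDR 0.118), 7.60 for Fbp1 (SE 1.39, FDR 0.118), 3.83 for Pygl (SE 0.82, FDR 0.141) and 2.23 for Khk (SE 0.53, FDR 0.168). G6pc, Slc2a2, Pklr and Gys2 did not pass the filter and were not tested there. Limma-voom called none of the same 4 genes either, with 1 gene of 14324 called (0.00698%). There 2 of the 4, and 1104 of all genes, had an unadjusted p lower than 0.05. Among the 5 mice with k labels (2 control, 3 Notch3-/-), edgeR tested all 8 and called none, with 0 of 14872 genes called (0.0%). There 7 of the 8, and 949 of all genes, had an unadjusted p lower than 0.05. G6pc, Pklr and Gys2 had 0 counts in the k-labelled control mice. These genes and Slc2a2 passed the filter of this fit only through the high Notch3-/- mice, so no conclusion on them is drawn from that count.

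The call of these genes depended on the tool, on the filter and on Notch3-/- mouse 3. The size of the log2 fold changes depended on Notch3-/- mouse 2 and, for Pck1 and Fbp1, also on control mouse 2. Without Notch3-/- mouse 2 the log2 fold changes were 6.11 for Pck1, 6.11 for Fbp1, 1.20 for Khk and 2.01 for Pygl, and edgeR called none of these 4. Without control mouse 2 they were 8.93 for Pck1 and 9.08 for Fbp1, and edgeR called none of the 4 there either. DESeq2 called all 8 higher in Notch3-/- mice, with 601 of 17013 genes called (3.53%), and the largest FDR among the 8 was 0.0339 for Khk. EdgeR without the filter also called all 8 higher, with 639 of 28790 genes called (2.22%). DESeq2 gives no adjusted p to genes of low mean count. G6pc, Pklr and Gys2, with 3, 1 and 1 counts over the control mice, reached that mean only through Notch3-/- mice 1 and 2. In both fits the calls of these genes rest on those mice, so no conclusion on them is drawn from either. Without Notch3-/- mouse 3, edgeR with its filter called all 8 higher, with 936 of 15008 genes called (6.24%). Mouse 3 was left out because its values of these genes were low, so calls without it follow in part from that choice, and G6pc, Slc2a2, Pklr and Gys2 pass the filter there through 2 high mice. The log2 fold changes were then 8.56 for Pck1 (SE 0.72), 8.15 for Fbp1 (SE 0.62), 9.93 for G6pc (SE 1.03), 6.82 for Slc2a2 (SE 0.64), 2.69 for Khk (SE 0.34), 10.1 for Pklr (SE 1.05), 9.10 for Gys2 (SE 1.08) and 4.35 for Pygl (SE 0.53). The FDR in that fit ran from 3.05e-05 for Fbp1 to 0.000724 for Khk. For genes with 1 to 3 control counts such a fitted value depends on the prior count, and the counts themselves carry the comparison.

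For 5 of the 8 genes, Pck1, Fbp1, Slc2a2, Pklr and Pygl, every Notch3-/- mouse was above every control mouse in CPM. Among all genes with a count the same held for 850 of 28790 (2.95%). The margin in mouse 3 was small. Khk in mouse 3 (34.8 CPM) was below control mouse 1 (36.7 CPM).

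The technical libraries showed the same mice as high. In Notch3-/- mice 1 and 2 each of the 8 genes had counts in each library, 24 of 24 values in either mouse. In Notch3-/- mouse 3 18 of 24 values were above 0, and among the controls 11, 18, 9 and 12 of 24. The libraries of Notch3-/- mouse 2 lay close together for most genes, with 375 to 402 CPM of G6pc and 706 to 766 CPM of Pck1. They spread most for Gys2 (74.85 to 106.4 CPM, 1.42-fold) and Slc2a2 (206.4 to 262.3 CPM, 1.27-fold). For each gene the libraries of Notch3-/- mouse 1 were wider than those of mouse 2. G6pc had 45, 104 and 24 counts, or 46.9, 57.1 and 23.6 CPM, in libraries 1 to 3 of Notch3-/- mouse 1. Gys2 spread most in that mouse, 3.29-fold between its lowest and highest library. Slc2a2 in control mouse 1 rested on a single library, which held all 6 of its counts.

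**Figure D2:**
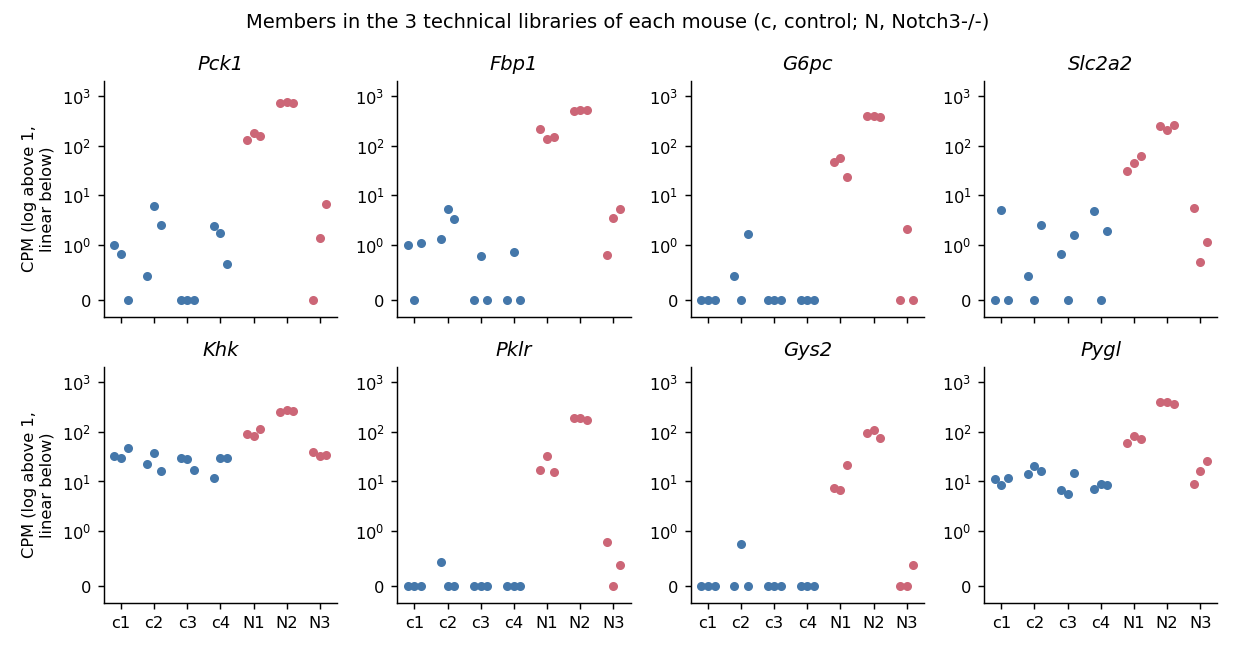
CPM of each gene in the 21 technical libraries, 3 points for each mouse, on an axis that is linear below 1 and logarithmic above. Control mice are c1 to c4 and Notch3-/- mice N1 to N3, and each library of N1 and N2 lies above each library of the control mice.

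Among themselves the 8 genes kept nearly the same pattern over the libraries. Pearson's r of log2 CPM (prior count 2) over the 21 libraries was 0.873 to 0.989 for the 28 pairs of genes, with a median of 0.960. It was lowest for Khk with Slc2a2 and highest for Pklr with G6pc. These values rest on the gap between 2 mice and the other 5, the libraries of a mouse are not independent, and no test is attached to them. The genes outside the 8 with the most similar pattern to their mean, among 15296 genes with at least 50 counts, were Cyp4a14 (r = 0.997), a fatty acid hydroxylase, the carboxylesterase genes Ces3a and Ces2a, the aminotransferase gene Agxt2, and AI182371. Ces3a had 0, 6, 0 and 0 counts in the control mice and 235, 2074 and 6 in the Notch3-/- mice. In all 370 genes had an r above 0.95.

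Levels between genes were compared per kilobase of exon. In each control mouse Khk was the highest of the 8, with 20.4, 14.1, 13.1 and 15.5 CPM per kilobase, and Pygl came next, with 1.52, 2.40, 1.46 and 1.25. In Notch3-/- mouse 3 the same genes led, with 19.4 for Khk and 2.75 for Pygl. In Notch3-/- mouse 1 Fbp1 was highest with 94.6 CPM per kilobase, followed by Khk with 53.0 and Pck1 with 47.7, which differed by less than the spread of the technical libraries. In Notch3-/- mouse 2 the order was Fbp1 (296), Pck1 (211), G6pc (159), Khk (143), Pklr (56.5), Pygl (55.7), Slc2a2 (41.2) and Gys2 (34.5), and Pklr and Pygl, and likewise Slc2a2 and Gys2, lay within the spread of their libraries. Part of this order depended on the length used. With the longest basic transcript of each gene as its length, an alternative chosen after seeing the data, Khk in mouse 2 had 163 CPM per kilobase and G6pc 159, and Pygl had 128 and Pklr 63.0. Fbp1 (340) and Pck1 (272) led there too.

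The makeup of the 8 genes' counts differed between the mice with high and with low sums. Khk held 72.7%, 51.5%, 67.8% and 70.0% of them in the controls and 53.9% in Notch3-/- mouse 3, but 15.3% and 9.33% in Notch3-/- mice 1 and 2. Pck1 held 26.2% in either of the mice with high counts. G6pc held 7.45% in mouse 1 and 13.9% in mouse 2.

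The step from Notch3-/- mouse 1 to mouse 2 was unequal among the genes. The CPM of mouse 2 over mouse 1 was 8.33 (6.04 to 11.8) for Gys2, 8.28 (7.09 to 9.73) for G6pc and 7.49 (6.03 to 9.39) for Pklr. It was 4.42 (4.06 to 4.83) for Pck1, 3.12 (2.86 to 3.42) for Fbp1 and 2.71 (2.40 to 3.05) for Khk. In a list of 15 hepatocyte genes the same ratio had a median of 1.78, with 1.07 (1.04 to 1.11) for Alb and 4.36 (4.06 to 4.68) for Apob. Over the 8 genes and this list, 23 genes in all, the ratio was lower where the counts per exon base in mouse 1 were higher (Spearman's rho -0.92 across genes, a description, since genes are not independent replicates). The count in mouse 1 enters both quantities, so part of this negative value is built in. Alb had 2.66 counts per exon base in mouse 1 and 3.81 in mouse 2, summed over 3 libraries, and Gys2 had 0.0154 and 0.172. In a single library the highest value of any gene of at least 500 exon bases was 1.97 counts per base, and Fbp1, the highest of the 8, reached 0.528 in Notch3-/- mouse 2. The part of counting depth per base in these ratios was not tested.

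**Figure D3:**
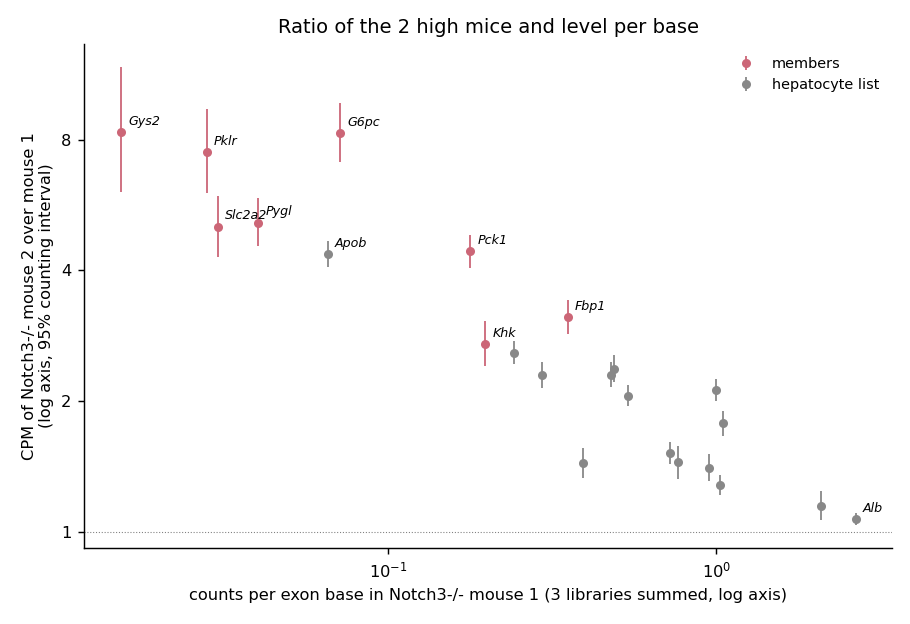
CPM of Notch3-/- mouse 2 over mouse 1 (vertical log axis, bars are 95% counting intervals) against counts per exon base in mouse 1 (horizontal log axis) for the 8 genes in red and 15 hepatocyte genes in grey. The ratio runs from 8.33 for Gys2, the gene with the fewest counts per base, to 1.07 for Alb, the gene with the most, and the count in mouse 1 enters both axes.

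For most of these steps the heart expresses another gene, which allows the share of the liver gene to be given per exon base within each activity. G6pc made up 1.90% of G6pc and G6pc3 in control mouse 2 and 0% in the other control mice, and 58.1%, 94.1% and 1.69% in Notch3-/- mice 1 to 3. Pck1 made up 0% to 13.6% of Pck1 and Pck2 in the control mice and 95.7%, 99.0% and 35.7% in the Notch3-/- mice. Fbp1 made up 0.358% to 4.46% of Fbp1 and Fbp2 in the control mice and 78.6%, 95.8% and 4.83% in the Notch3-/- mice. The liver form of Pck1 and Fbp1 was thus the larger part in Notch3-/- mice 1 and 2 and in no other mouse. For G6pc this held in mouse 2, while its share in mouse 1 was 49.5% with the longest basic transcript as length.

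The shares were smaller where the heart form is abundant. Pklr made up 3.60%, 26.0% and 0.0664% of Pklr and Pkm in Notch3-/- mice 1 to 3, and Gys2 7.50%, 44.3% and 0.103% of Gys2 and Gys1. Slc2a2 made up 3.05%, 16.5% and 0.148% of its group with Slc2a1 and Slc2a4, and Pygl 1.55%, 9.27% and 0.431% of its group with Pygm and Pygb. In the control mice the highest of these shares was 0.372%, for Pygl in control mouse 2. The size of these shares depended on the length used. With the longest basic transcript as length, Pklr made up 1.98% in Notch3-/- mouse 1 and a mean of 6.01% over the 3 Notch3-/- mice, against 9.89% with all exon bases. Pygl then made up 3.04%, 16.9% and 0.849%.

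**Figure D4:**
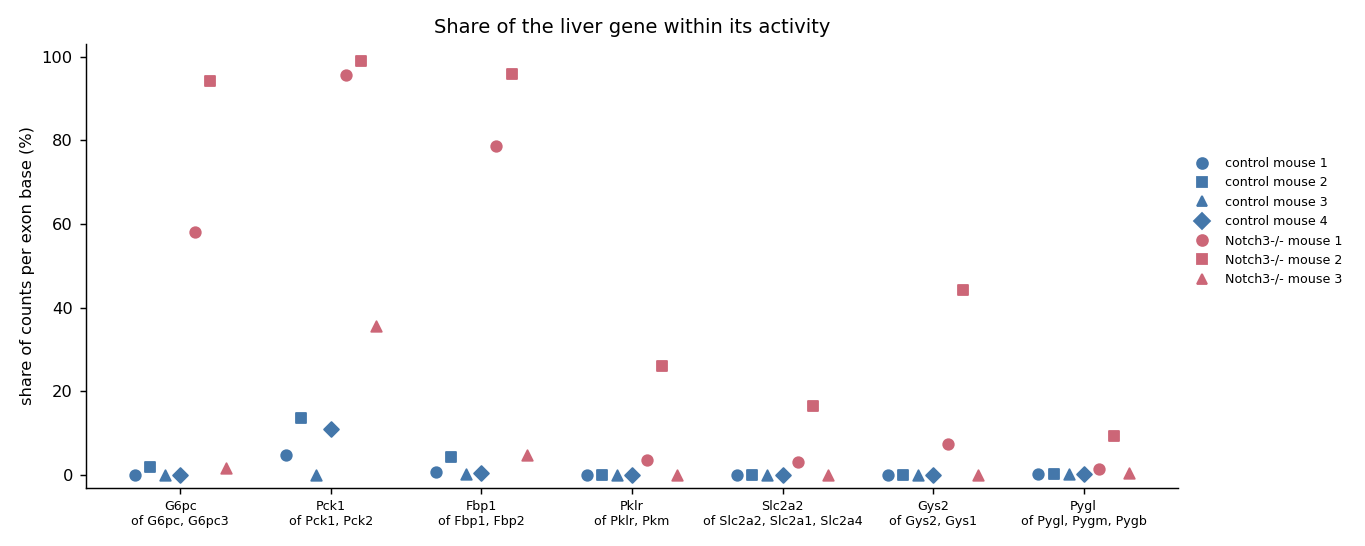
Share of the liver gene in the counts per exon base of its activity, in percent, for each of the 7 mice, with blue symbols for control and red symbols for Notch3-/- mice. Pck1, G6pc and Fbp1 pass 50% in Notch3-/- mice 1 and 2 (G6pc in mouse 1 at 58.1%, and at 49.5% with the longest basic transcript as length), while Pklr, Slc2a2, Gys2 and Pygl stay below it in every mouse.

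None of the 9 heart counterparts was called by edgeR with all 7 mice or without Notch3-/- mouse 3, or by DESeq2 or limma-voom, and Pck2 alone had an unadjusted p lower than 0.05 by edgeR with all mice. Pkm, the pyruvate kinase of muscle, had 1052 ± 121 CPM in control mice (SD, n = 4) and 897 ± 105 in Notch3-/- mice (SD, n = 3), with a log2 fold change of -0.21 (SE 0.12, FDR 0.585 by edgeR). The log2 fold changes were -0.18 for Pygm, -0.12 for Pygb, -0.05 for Gys1, -0.14 for Slc2a4, -0.09 for Slc2a1 and -0.36 for G6pc3. The mitochondrial enzyme gene Pck2 had 27.9 ± 6.41 CPM in control and 16.1 ± 0.626 CPM in Notch3-/- mice, with a log2 fold change of -0.77 (SE 0.22, FDR 0.245). Muscle Fbp2 had 75.3, 54.3, 56.1 and 55.5 CPM in the control mice and 37.8, 19.1 and 63.9 CPM in the Notch3-/- mice, so that its lowest values were in the mice with the most Fbp1, and its FDR was 0.586 with all mice and 0.0555 without mouse 3.

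The other genes of sugar metabolism were taken from 4 lists with 91 genes in all, 80 of which passed the filter. With all 7 mice edgeR and limma-voom called 0 of the 80. By edgeR 15 of them passed an unadjusted p of 0.05, 13 higher and 2 lower (Pck2 and Ldhb), as did 1488 of all 14324 genes. Over all genes, 1104 of 14324 passed it by limma-voom and 1863 of 17013 by DESeq2, the base for such counts below. Ldhb, and the genes named below from the fit without mouse 3, were chosen after their values were seen. DESeq2 called 12 of 89 (3.53% of all genes), edgeR without the filter 14 of 90 (2.22%), and edgeR without Notch3-/- mouse 3 20 of 87 (6.24%), all of them higher in Notch3-/- mice. The calls without mouse 3 given below for each list have that same share of 6.24% over all genes and the same limit as those of the 8 genes. For the 80 genes the median log2 fold change was -0.04, against 0.00 for all 14324 genes.

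In the list for glycolysis and gluconeogenesis, 10 of 32 tested genes had a positive log2 fold change and the median was -0.13. Pcx, pyruvate carboxylase, which feeds gluconeogenesis, had 320, 500, 511 and 332 counts in the control mice and 563, 2367 and 697 in the Notch3-/- mice, with a log2 fold change of 1.24 (FDR 0.297). Without mouse 3, 4 genes of the list were called, among them Pcx, Gckr and Slc37a4, the last being the transporter that brings glucose 6-phosphate to G6pc. With all mice DESeq2 called 2 of 34 genes of the list and edgeR without the filter 2 of 34, and neither called Pcx. Gckr had 0, 4, 1 and 0 counts in the control mice and 187, 826 and 0 counts in the Notch3-/- mice.

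The glycogen list held 20 tested genes with a median log2 fold change of 0.02, and its largest values were those of Ppp1r3b (1.54, FDR 0.210), which directs protein phosphatase 1 to glycogen, and Pgm2 (0.61, FDR 0.525). Ppp1r3b had 225, 299, 495 and 263 counts in the control mice and 690, 2133 and 561 in the Notch3-/- mice, and it was the 1 gene of the list called without mouse 3. With all mice edgeR without the filter called it too (FDR 0.0228), and DESeq2 did not (FDR 0.111) and called 0 of the 20, with 2 at an unadjusted p lower than 0.05. In the list for sugar transport and for fructose and galactose use, 9 of 15 tested genes had a positive log2 fold change, with a median of 0.25. Glyctk (4.00, FDR 0.165) and Tkfc (3.51, FDR 0.194), which act after Khk in the breakdown of fructose, had the largest. Of the 4229 exon bases of Glyctk, 2203 are shared with D030055H07Rik on the opposite strand, which had 699 counts over all mice. Of the 4617 exon bases of Tkfc, 596 are shared with Cyb561a3 and 328 with Ddb1, also on the opposite strand. Their part in these counts was not tested. Tkfc had 33, 49, 42 and 31 counts in the control mice and 160, 1430 and 49 in the Notch3-/- mice. Without mouse 3, 5 genes of the list were called, among them Glyctk, Tkfc, Slc2a9 and Galm. With all mice DESeq2 called 3 of 16, Glyctk and Tkfc included, and neither Slc2a9 nor Galm.

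**Figure D5:**
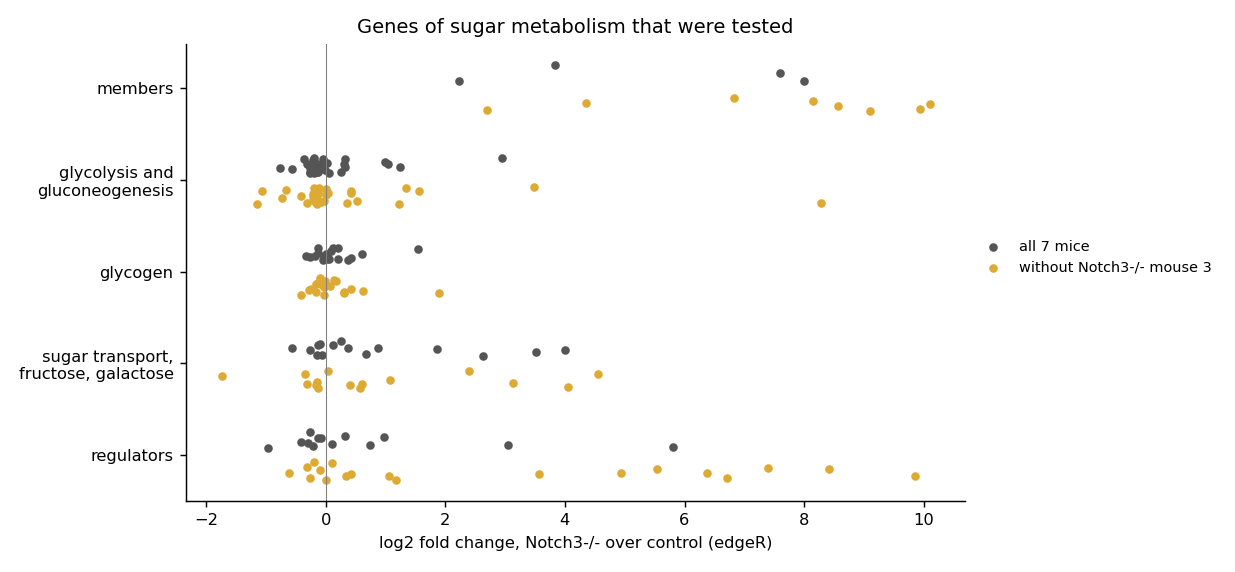
Log2 fold change of each tested gene, Notch3-/- over control, in the 8 members and in the 4 lists, from edgeR with all 7 mice (grey, 4 members tested) and without Notch3-/- mouse 3 (yellow, 8 members tested). Most genes of the lists lie near 0, and at least 1 gene of each list lies between 1 and 10.

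Of 19 regulators of these pathways 13 were tested with all mice, with a median log2 fold change of -0.08, and the largest were those of the glucagon receptor gene Gcgr (5.80, FDR 0.164) and of Cebpa (3.05, FDR 0.190). Gcgr had 10, 8, 2 and 1 counts in the control mice and 170, 914 and 5 in the Notch3-/- mice. Without mouse 3, 10 of 19 were called, among them Hnf4a, Onecut1, Creb3l3, Foxa2, Gcgr, Nr1h4, Cebpa, Srebf1 and Mlxipl. With all mice DESeq2 called 7 of 19, without Foxa2 (FDR 0.674), Onecut1 (FDR 0.454) and Mlxipl (FDR 0.237), edgeR without the filter called 8 of 19, and limma-voom called 0 of 13, with 1 at an unadjusted p lower than 0.05. Hnf4a, a transcription factor of hepatocytes, had 0, 1, 0 and 0 counts in the control mice and 130, 693 and 2 in the Notch3-/- mice. Foxa2 had 0 counts in every control mouse and 12, 16 and 0 in the Notch3-/- mice.

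Markers of hepatocytes moved with the 8 genes. All 15 genes of the hepatocyte list were tested with all mice and all 15 had a positive log2 fold change, with a median of 6.90, and edgeR called none with all mice. All 15 passed an unadjusted p of 0.05. DESeq2 called 15 of 15, and so did edgeR without mouse 3, but limma-voom called 0 of 15, with 1 at an unadjusted p lower than 0.05. The list had 167, 770, 63 and 80 counts in the controls and 24013, 55059 and 780 counts in the Notch3-/- mice, which is 0.627%, 1.07% and 0.0153% of all counts in the latter. None of its genes was at 0 in all mice. Alb, its most abundant gene, had 68, 385, 10 and 32 counts in the control mice and 6240, 8913 and 354 in the Notch3-/- mice. The largest log2 fold changes of the list were 8.92 for Apob (FDR 0.118) and 8.77 for Tat (FDR 0.118). The part of hepatocyte RNA in the values of the 8 genes was not tested.

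The ratio of the 8 genes to these markers was not the same in every mouse. Per 1000 counts of the hepatocyte list, Fbp1 had 12.0, 18.2, 15.9 and 12.5 counts in the control mice and 25.0, 45.5 and 25.6 in the Notch3-/- mice. These control values rest on 2, 14, 1 and 1 counts of Fbp1 over 167, 770, 63 and 80 counts of the list. A single count moves such values widely, so the gap between the groups is not read as a difference. G6pc had 3.90 in control mouse 2, 7.20, 34.8 and 3.85 in the Notch3-/- mice and 0 in the other control mice. Pck1 overlapped between the groups, with 0 to 50.0 in the control mice and 25.4, 65.3 and 25.6 in the Notch3-/- mice. The control values of Pck1 rest on 2, 12, 0 and 4 counts. Slc2a2 had 35.9, 5.19, 63.5 and 62.5 in the control mice and 7.29, 21.4 and 14.1 in the Notch3-/- mice, so most control mice were above the Notch3-/- mice. Khk had 157 to 1600 per 1000 in the control mice, 237 in Notch3-/- mouse 3, and 14.8 and 23.3 in Notch3-/- mice 1 and 2. Control mouse 2 and Notch3-/- mouse 3 were alike in the hepatocyte list, with 161 and 147 CPM, and both were above the other control mice, which had 14.7 to 54.7.

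Markers of both zones of the liver lobule were present in the same mice. The periportal zone, where gluconeogenesis is strongest, was represented by 6 genes with 27, 104, 48 and 27 counts in the control mice and 2397, 7630 and 98 in the Notch3-/- mice, and Ass1 was its most abundant gene. The largest log2 fold changes of its 3 tested genes were 5.35 for Gls2 (FDR 0.118) and 5.18 for Sds (FDR 0.165). The pericentral list is led by Oat and Glul, which heart expresses too, and the list had 1981 to 3684 counts in the control mice and 2930, 4373 and 3164 in the Notch3-/- mice. Slc1a2 had the largest log2 fold change of its 3 tested genes (3.54, FDR 0.207), and Glul had -0.34 (FDR 0.401). Cyp1a2, chosen after its values were seen, had 2, 3, 0 and 1 counts in the control mice and 382, 464 and 0 in the Notch3-/- mice. Without mouse 3, edgeR called 6 of 6 periportal and 4 of 6 pericentral genes, all higher. With all mice DESeq2 called 6 of 6 and 2 of 6, edgeR without the filter 6 of 6 and 3 of 6, and edgeR with its filter and limma-voom none of the 3 tested in either list. In edgeR with its filter 3 periportal genes, all higher, and 2 pericentral genes passed an unadjusted p of 0.05. Of these 2 pericentral genes 1 was higher and 1, Glul, was lower in Notch3-/- mice. In limma-voom 0 periportal genes and 1 pericentral gene passed it, the latter being Glul, again lower.

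The kidney and the intestine also express genes of gluconeogenesis. Kidney markers were at or near 0, and an intestinal marker was high in 1 mouse. Of 8 kidney tubule genes, Slc34a1, Slc22a6 and Umod had no count in any mouse, and the list summed to 9, 25, 7 and 3 counts in the control mice and 10, 12 and 18 in the Notch3-/- mice, mostly from Slc5a2. Of 7 genes of the intestinal epithelium Alpi had no count, and the list had 7, 8, 1 and 12 counts in the control mice and 14, 233 and 10 in the Notch3-/- mice. Fabp2 had 0, 1, 0 and 0 counts in the control mice and 13, 221 and 0 in the Notch3-/- mice. It was not tested by edgeR with all mice and its filter, was called without mouse 3 (FDR 0.00218) and without the filter (FDR 0.0126), and was not called by DESeq2 (FDR 0.201). The other genes of this list did not share its pattern, and Vil1, chosen after its values were seen, had 0, 7, 1 and 10 counts in the control mice and 0, 0 and 1 in the Notch3-/- mice. The part of intestinal RNA in the values of the 8 genes was not tested. Of 7 pancreas genes Ins1, Ins2, Gcg, Pdx1 and Prss2 had no count, and the most abundant, Cela1, had 3 to 20 counts per mouse (log2 fold change 0.59, FDR 0.785).

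Of the other lists, 6 adipocyte genes had 3, 9, 1 and 35 counts in the control mice and 22, 100 and 1 in the Notch3-/- mice, with 90 from Cidec in Notch3-/- mouse 2. Without the filter 2 of the 6 had a positive log2 fold change, and Adipoq, chosen after its values were seen, had 0, 3, 0 and 7 counts in the control mice and 2, 1 and 0 in the Notch3-/- mice. Markers of Kupffer cells, the macrophages of the liver, had 23, 27, 31 and 26 counts over 5 genes in the control mice and 207, 364 and 74 in the Notch3-/- mice. Clec4f, the most abundant of them, had 0, 6, 7 and 2 counts in the control mice and 83, 128 and 10 in the Notch3-/- mice. The largest log2 fold changes of the 3 tested Kupffer genes were 4.26 for Cd5l (FDR 0.320) and 1.29 for Vsig4 (FDR 0.230), and without mouse 3 edgeR called Cd5l and Clec4f of the 4 tested. With all mice DESeq2 and edgeR without the filter each called 1 of 5, Clec4f, and not Cd5l (FDR 0.674 and 0.0883), whose 12 control counts were all in control mouse 4. The 8 cardiomyocyte genes, led by Ttn, had 27520, 19630, 22930 and 26280 CPM in the control mice and 27120, 17090 and 19210 in the Notch3-/- mice, so that mice 2 and 3 were below every control mouse. None was called by edgeR with all mice or had an unadjusted p lower than 0.05, with a median log2 fold change of -0.25 and the largest at -0.28 for Myl3 (FDR 0.577) and for Myl2 (FDR 0.591).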

How the data were processed

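The deposited values are counts, whole numbers of reads per Ensembl gene in 21 libraries (3 technical libraries for each of 7 mice), which the authors did not normalize. The submitters' processing notes name mm10 and CASAVA; the aligner, the counting program and its use of strand are not given in the sources used here. The 92 ERCC lines were left out. Libraries held 464390 to 2427783 counts and were summed per mouse. Genotypes were compared with edgeR 4.0.16 in R 4.3.3 (filterByExpr, TMM, quasi-likelihood F-test, genotype as the only term, Benjamini-Hochberg adjustment), with DESeq2 1.42.0 and limma-voom (limma 3.58.1) as alternatives. For DESeq2, genes without an adjusted p were not counted as tested. Counting intervals and shares (scipy 1.17.1) cover counting error only, since PCR reads without molecular identifiers are not independent molecules. Coordinates, exon bases and overlaps come from GENCODE vM21 (GRCm38), which held 46005 of the 46517 identifiers. The fits were also run on simulated data, and no conclusion on the 8 members is drawn from that run. The members and lists were chosen with earlier results of these data known. Named are the 8 members, the heart genes of each activity, per list the called genes up to 5 by fold or else the 2 with the largest absolute log2 fold change, the most abundant and the absent markers, and the 5 genes most like the members' mean over libraries; not every gene this covers is named, and other names are marked as chosen after their values were seen. Alternatives covered the test, normalization, filter, depth, fold threshold, each mouse, the k-labelled mice and each technical library.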

Additional observations from a re-analysis of the deposited data

Results flagged for a closer look

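Control mouse 2 was far above the other 3 control mice for Fbp1 (2.93 CPM, 14 counts), G6pc (0.629 CPM, 3 counts), Pklr (0.210 CPM, 1 count) and Gys2 (0.210 CPM, 1 count), by the gap to the nearest mouse over the whole range (Dixon's test). The last 3 rest on 1 to 3 counts beside 3 mice at 0, which gives the largest possible ratio whatever the count. Control mouse 1 was far above the others for Fbp2 (75.3 CPM), and control mouse 4 for the summed adipocyte markers (11.6 CPM). Of 27 sets of control values examined 6 stood out in this way, those 3 included. Chance gives about 1 in 20, a rate that does not apply to sets with a single value above 0. The ERCC spike-in lines had 34 counts over all libraries, 18 of them in technical library 1 of Notch3-/- mouse 1 and at most 3 in any control library.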

How the results depend on the processing

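With all 7 mice 0 members, 0 pathway genes and 1 gene were called. DESeq2 called 8 members, 12 pathway genes and 601 genes, and edgeR on every gene with a count called 8, 14 and 639. In both, the limit stated above holds for G6pc, Pklr and Gys2. Leaving out each mouse in turn gave 0 to 8 members, 0 to 20 pathway genes and 1 to 936 genes, with the highest values only without Notch3-/- mouse 3. With technical library 1, 2 or 3 alone 48, 39 and 77 genes were called, with 2 members for library 3 and 1 pathway gene each for libraries 2 and 3; the k-labelled mice gave 0 members and 0 genes. Apart from the fewer mice or genes tested, the cause was not tested. Limma-voom, RLE factors, TMM factors without the liver genes, at least 10 counts in every mouse, thinned counts and no fold threshold gave 0 members and 1 gene. The log2 fold change of the 4 members tested with all mice was positive in all 65 combinations of gene and alternative, from 6.11 to 8.99 for Pck1, 6.11 to 9.55 for Fbp1, 1.20 to 2.69 for Khk and 2.01 to 4.35 for Pygl, with the lowest value of each without Notch3-/- mouse 2.

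Mean shares depended on length: in Notch3-/- mice that of Pygl was 3.75% and 6.91% with the longest basic transcript, and that of Pklr 9.89% and 6.01%. In control mice the share of Slc2a2 was 0.0878% and 0.145% from raw counts, and that of Gys2 0.035% and 0.131% in technical library 2. That of Pygl was 0.238%, 0.430% from raw counts and 0.472% with the longest basic transcript, an alternative chosen after seeing the data. Other control shares moved too. That of Pck1 was 7.37%, 3.45% from raw counts and 11.9% in technical library 2. The share of Fbp1 was 1.52%, 0.792% in technical library 1 and 2.58% in library 2. For G6pc it was 0.474%, 0% in technical library 2 and 1.19% in library 3. From raw counts Pygl made up 6.37% in Notch3-/- mice, and Pck1 19.6% in Notch3-/- mouse 3, against 35.7% per exon base. No paired analysis was possible because the replicate numbers in the labels are technical libraries of 1 mouse and mice of both genotypes share no number. At these depths a count of 0 allows 0.564 to 0.996 CPM.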
